A study of Mus musculus with 14 samples.

Results

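Genes of the complement system, the set of blood proteins that marks microbes and dying cells for removal, were followed through mouse blood-forming cells with and without Rheb1. They are C1qa, C1qb, C1qc, C3, C4b, Cfb and Cfp, which encode complement components, and C3ar1, Itgam and Itgb2, which encode complement receptors or their subunits. They were taken by gene name, 10 of the 27343 gene names on the array, and every one of their probes was read, 13 of 41174. C4b was picked because its signal was already known to be higher in Rheb1-/- progenitors and myeloid cells, so its genotype differences are described without a test. All 10 genes were among the 17720 tested, and C3ar1 entered only through the wild-type myeloid cells, the one replicated group where it was well above background on every array, so its differences are described without a test as well.

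RNA of 14 samples was measured, each on 1 single-colour Agilent array. Rheb1-/- myeloid cells and wild-type myeloid cells had 3 arrays each, Rheb1-/- myeloid progenitors and wild-type myeloid progenitors had 3 each, and Rheb1-/- and wild-type hematopoietic stem cells had 1 each. Rheb1-/- stands for Vav1-cre; Rheb1fl/fl mice, in which Cre under the Vav1 promoter removes Rheb1 throughout the blood system. Rheb1 (official symbol Rheb) is the small GTPase that switches on the growth kinase complex mTORC1. The sources used here do not give the alleles of the wild-type mice, the age and number of the animals, or the surface markers used to isolate the cells. In cells isolated in bulk, fewer cells of a type and less RNA per cell cannot be told apart.

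Complement is triggered along 3 routes. In the classical route C1q binds antibody or dying cells and C4 and C2 are cut, in the lectin route ficolins and collectins take the place of C1q, and in the alternative route C3, factor B and properdin build and hold a convertase on surfaces. All routes meet at C3, whose fragments are read by the receptors C3aR and CR3 (the integrin of CD11b and CD18) on phagocytes. Most complement protein in blood comes from the liver, but tissue macrophages are a known source of C1q, and neutrophils store properdin and CR3.

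A level below is the log2 processed signal of a probe minus the 75th percentile of its array, so a probe at that percentile reads 0. Levels of different probes are not on one scale and are compared only between samples. The scanner software marked 58.5% to 67.6% of an array's spots as well above background and none as saturated. The small number of arrays limits the precision. Rheb averaged 2.20 ± 0.14 in Rheb1-/- and 3.09 ± 0.40 in wild-type myeloid cells (SD, n = 3 each; adjusted p = 0.0116 by limma), and 2.84 ± 0.37 in Rheb1-/- and 3.92 ± 0.13 in wild-type progenitors (SD, n = 3 each; adjusted p = 0.0939 by limma). Without Rheb1-/- progenitor array 1 the progenitor difference of Rheb passed (adjusted p = 0.0389 by limma; 0.0389 to 0.547 in 24 alternatives). It read 2.26 in Rheb1-/- and 3.46 in wild-type stem cells, and the sources used here do not say whether its probe lies in the deleted part. The arrays lay on 4 slides. Rheb1-/- and wild-type myeloid cells were on different slides, as were the stem cell arrays, so genotype and slide cannot be told apart there. Progenitor arrays 1 and 2 of Rheb1-/- and 2 and 3 of wild type shared a slide, and their difference is given as the within-slide value. Wild-type progenitor array 1 lay with the wild-type stem cell array on a slide scanned at another time than the rest.

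C4b encodes the fourth component, which C1s cuts so that C2 can dock on it. It was higher in Rheb1-/- cells of both replicated cell types and not in the stem cell pair. C4b has a close neighbour, C4a, and the array design lists transcripts of both genes for both probes, so a contribution of C4a to the C4b probe was not tested. The probes are printed because the C4b values rest on one of them. In mm9 the C4b probe lies on the minus strand of chr17:34866361-34866420 and the C4a probe on the minus strand of chr17:34958899-34958958. Each is 60 bases long and lies within its transcript.
C4b: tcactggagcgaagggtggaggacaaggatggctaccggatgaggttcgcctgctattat
C4a: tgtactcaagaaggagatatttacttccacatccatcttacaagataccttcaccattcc
The C4a probe was not well above background on any of the 14 arrays, with group means of -7.11 in Rheb1-/- and -7.12 in wild-type myeloid cells and of -6.91 in Rheb1-/- and -7.66 in wild-type progenitors.

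The C4b level read -1.86, -0.50 and -0.59 on the Rheb1-/- myeloid cell arrays and -3.22, -3.90 and -3.97 on the wild-type ones. It read -1.84, -0.84 and -1.43 on the Rheb1-/- progenitor arrays and -4.05, -4.58 and -4.33 on the wild-type ones. In both cell types all Rheb1-/- arrays lay above all wild-type arrays, with no overlap. The difference was 2.71 ± 0.38 on the log2 scale in myeloid cells (SE, 3 arrays per genotype), or 6.55-fold. In progenitors it was 2.95 ± 0.38 (SE, 3 arrays per genotype), or 7.74-fold, and 3.12 within the slide. With the scanner's mean signal and normexp background correction, which adds an offset of 50, the log2 differences were 1.79 in myeloid cells and 1.83 in progenitors. That correction moved the fold of 32 of 85 single-gene differences by over 1.5 times, each of the 32 towards 0. Arrays of one genotype not overlapping in the higher direction were found for 21.0% of all genes in myeloid cells and 11.0% in progenitors, and nothing is read from that for C4b, which was chosen on these contrasts.

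In the stem cell pair C4b read -1.85 in Rheb1-/- and -1.27 in wild type, 1.49-fold lower in Rheb1-/-. Both stem cell arrays lay above every wild-type array of the other cell types. Ordered by mean, Rheb1-/- myeloid cells (-0.98 ± 0.76 SD, n = 3) came first, then the wild-type stem cell array, Rheb1-/- progenitors (-1.37 ± 0.50 SD, n = 3), the Rheb1-/- stem cell array, wild-type myeloid cells (-3.70 ± 0.42 SD, n = 3) and wild-type progenitors (-4.32 ± 0.26 SD, n = 3). The arrays of the first 4 lay between -1.86 and -0.50 and overlapped, and no array of the last 2 was above -3.22. Between cell types C4b did not pass the test. Myeloid cells minus progenitors was 0.39 ± 0.38 in Rheb1-/- (SE, 3 arrays per cell type; adjusted p = 0.395 by limma) and 0.63 ± 0.38 in wild type (SE, 3 arrays per cell type; adjusted p = 0.159 by limma), with 95% intervals of -0.47 to 1.24 and -0.23 to 1.48. Without Rheb1-/- myeloid cell array 1, the lowest of its group, the Rheb1-/- difference was 0.83 and passed (adjusted p = 0.0430 by limma; 0.0430 to 0.779 in 23 alternatives).

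**Figure D1:**
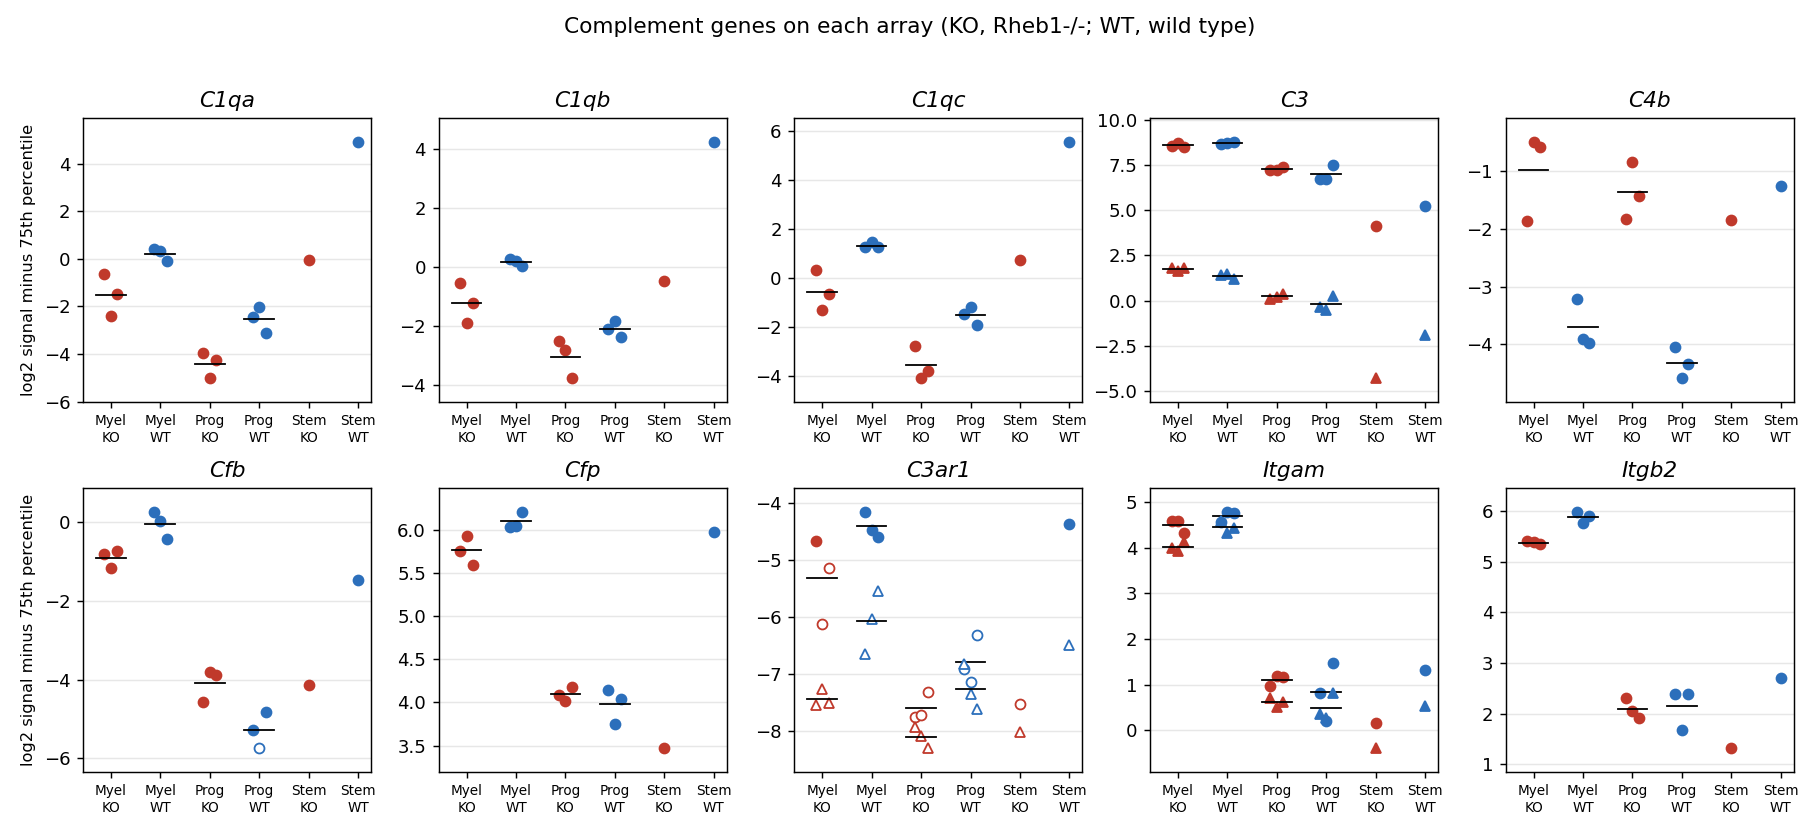
Level of each complement gene on each array, as log2 signal minus the array's 75th percentile, in myeloid cells (Myel), myeloid progenitors (Prog) and stem cells (Stem) of Rheb1-/- (KO, red) and wild-type (WT, blue) mice. Circles are the first probe and triangles the second, open symbols were not well above background, and bars are means of 3 arrays. The C4b values of Rheb1-/- myeloid cells and progenitors, -1.86 to -0.50, all lie above the wild-type ones, -4.58 to -3.22.

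The 5 genes whose levels were most like C4b over the 12 replicated arrays were Sva (Pearson r = 0.924), Adam3 (r = 0.923), Hspb11 (r = 0.915), Commd10 (r = 0.903) and Asnsd1 (r = 0.895). No p-value is given, since these arrays share the genotype groups. C4b was also picked for its rise on these arrays, so its correlations only describe them and nothing is read from them. For the other complement genes r with C4b lay between -0.430 for C1qc and 0.221 for Cfb, under the same limit.

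The 3 chains of C1q, the sensor of the classical route, were lower in Rheb1-/- cells, and the call was made in myeloid cells alone. C1qa, C1qb and C1qc encode the A, B and C chains of one hexameric protein and lie side by side on mouse chromosome 4. The probes of C1qa and C1qb are shown as examples, from the minus strand of mm9 chr4:136452409-136452468 and chr4:136436578-136436637.
C1qa: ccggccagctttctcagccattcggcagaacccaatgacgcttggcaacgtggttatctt
C1qb: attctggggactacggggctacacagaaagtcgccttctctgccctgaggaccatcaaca

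In myeloid cells C1qa read -0.65, -2.39 and -1.46 on the Rheb1-/- arrays and 0.40, 0.33 and -0.11 on the wild-type arrays. C1qb read -0.55, -1.89 and -1.23 in Rheb1-/- and 0.27, 0.21 and 0.02 in wild type. C1qc read 0.29, -1.32 and -0.68 in Rheb1-/- and 1.23, 1.44 and 1.23 in wild type. For each chain all Rheb1-/- arrays lay below all wild-type arrays, as were 29.0% of all genes, Rheb1-/- array 1 being the highest and array 2 the lowest of its group. C1qc fell 3.66-fold (log2 -1.87 ± 0.42 SE, 3 arrays per genotype, adjusted p = 0.00763 by limma), C1qa 3.26-fold (-1.71 ± 0.44, adjusted p = 0.0152 by limma) and C1qb 2.63-fold (-1.39 ± 0.36, adjusted p = 0.0151 by limma). Without Rheb1-/- myeloid cell array 2 the C1qb difference was -1.06 and did not pass (adjusted p = 0.0518 by limma; 0.00343 to 0.0518 in 22 alternatives). Genotype and slide cannot be told apart in these cells.

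In progenitors the same chains were lower on every Rheb1-/- array than on any wild-type array, as were 8.97% of all genes, and did not pass. C1qc read -2.80, -4.10 and -3.83 in Rheb1-/- and -1.50, -1.20 and -1.92 in wild type, a log2 difference of -2.03 ± 0.42 (SE, 3 arrays per genotype, adjusted p = 0.0995 by limma; -1.88 within the slide). C1qa read -3.96, -5.01 and -4.24 in Rheb1-/- and -2.43, -2.02 and -3.13 in wild type, a difference of -1.88 ± 0.44 (SE, 3 arrays per genotype, adjusted p = 0.129 by limma; -1.91 within the slide). C1qb averaged -3.03 ± 0.65 in Rheb1-/- and -2.11 ± 0.27 in wild type (SD, n = 3 each), a difference of -0.93 that was -0.56 within the slide (adjusted p = 0.354 by limma). Without Rheb1-/- progenitor array 1 the C1qc difference was -2.42 and passed (adjusted p = 0.0452 by limma; 0.0452 to 0.570 in 24 alternatives). With normexp correction the log2 differences in progenitors were -0.94 for C1qa and -1.31 for C1qc. In the same progenitors 0 of 8 megakaryocyte markers passed by limma, while an unadjusted p under 0.05 was reached by 8, each lower in Rheb1-/-, with a median log2 difference of -1.50 and a summed signal, in multiples of the array's 75th percentile, of 8.24 to 16.9 in Rheb1-/- and 31.3 to 49.1 in wild type. Of all genes tested in progenitors, 2138 of 17720 had an unadjusted p under 0.05 by limma, in either direction. The part of the megakaryocyte markers in the C1q and C4b differences was not tested. The genotype differences of the chains in the 2 cell types were not shown to differ, at 0.17 for C1qa, -0.47 for C1qb and 0.16 for C1qc (myeloid minus progenitors; 95% intervals -1.23 to 1.58, -1.61 to 0.68 and -1.16 to 1.48; adjusted p = 0.876, 0.569 and 0.878 by limma). The signs for C1qa and C1qc turned under normexp correction and without wild-type progenitor array 2, Rheb1-/- progenitor array 2 or Rheb1-/- myeloid cell array 1.

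Of the 10 genes the stem cell pair differed most in these chains. C1qa read -0.05 in Rheb1-/- and 4.92 in wild type, C1qb -0.47 and 4.23, and C1qc 0.72 and 5.54. These are differences of 31.3-fold, 26.0-fold and 28.3-fold between 2 single arrays, with no replicate to test them. The wild-type stem cell array had the highest C1q levels of all 14 arrays.

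Markers of resident macrophages were also lower in Rheb1-/- in the stem cell pair and, for most of them, in myeloid cells. All 13 markers on the array (Adgre1, Vcam1, Cd5l, Mertk, Cd163, Axl, Slc40a1, Spic, Hmox1, Siglec1, Mrc1, Timd4 and Cd68) were over 2-fold lower in the Rheb1-/- than in the wild-type stem cell array, with a median log2 difference of -4.56, against 0.13 over all genes measured on both arrays. Their summed signal, in multiples of the array's 75th percentile, was 9.64 in the Rheb1-/- and 221 in the wild-type stem cell array. It was 39.1 to 45.9 in Rheb1-/- and 58.3 to 61.7 in wild-type myeloid cells, and 23.6 to 28.1 in Rheb1-/- and 23.3 to 31.1 in wild-type progenitors. A few bright probes carry these sums, and in progenitors 11 of the 13 markers were below 0, among them Spic (log2 -1.97), Axl (-1.19) and Hmox1 (-1.04), beside a value of 0.00 for Vcam1. Timd4 was tested only because it was well above background in wild-type myeloid cells. Of the other 12, in myeloid cells 9 fell and Vcam1 rose (log2 0.94), where 17.7% of all genes were called lower. In progenitors 0 of 12 passed by limma. At an unadjusted p under 0.05 by limma 1 was higher and 3 were lower, beside 2138 of all 17720 genes in either direction. The median over all 13 was -1.74 in myeloid cells and -0.45 in progenitors. Timd4 was not well above background on any Rheb1-/- myeloid cell array, and Mertk, Siglec1 and Timd4 were not on any progenitor array of either genotype. The part of macrophage RNA in the C1q differences was not tested.

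**Figure D2:**
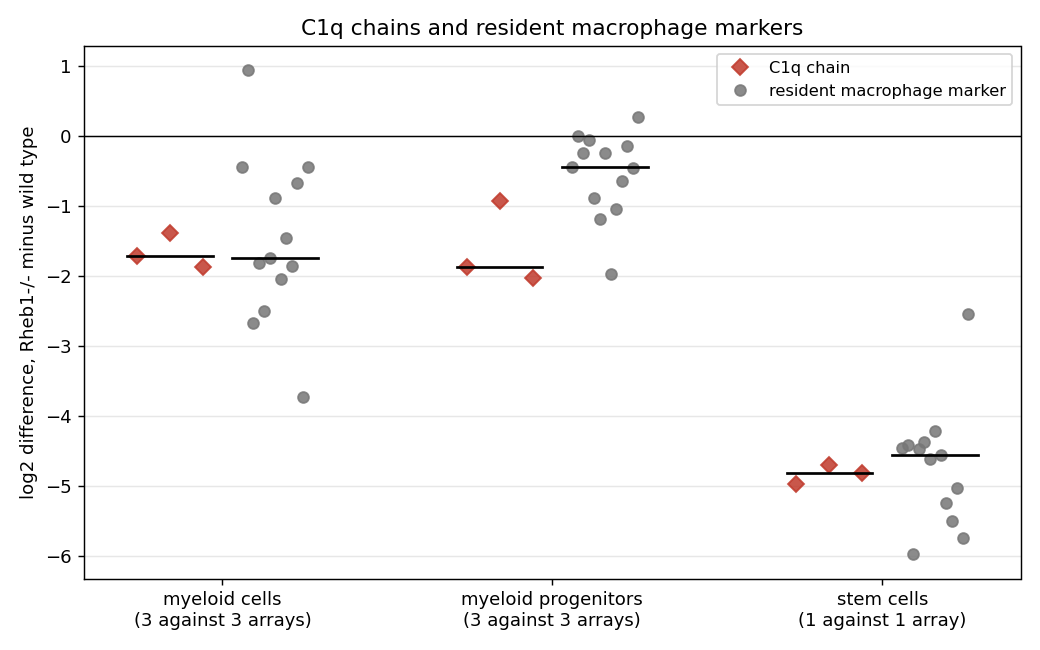
Log2 difference, Rheb1-/- minus wild type, of the 3 C1q chains (red diamonds) and 13 resident macrophage markers (grey circles) in myeloid cells, progenitors and stem cells, with bars at the medians. The C1q chains lie at -1.87 to -1.39 in myeloid cells and at -4.97 to -4.70 in the stem cell pair, beside marker medians of -1.74 and -4.56. In progenitors the chains lie at -2.03 to -0.93, beside a marker median of -0.45.

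Axl, a receptor for dying cells, is a member of that marker list and was also among the 5 genes most like C1qb over the 12 replicated arrays, with Aox1 (Pearson r = 0.976), Axl (0.975), DV062564 (0.972), C1qc (0.972) and Tppp3 (0.972). C1qa followed C1qb at r = 0.959 and C3ar1 at 0.917. These are descriptions over arrays that share cell type and genotype.

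C1qb and C1qc are in the RefSeq promoter table, and their windows are shown because the chains moved together. Each line is the 250 bases upstream of the transcript start on the minus strand of GRCm38.p6, at chr4:136886201-136886450 for C1qb and chr4:136892915-136893164 for C1qc. Capitals mark GAGGAA on either strand, the core letters bound by PU.1, a factor of myeloid cells.
C1qb: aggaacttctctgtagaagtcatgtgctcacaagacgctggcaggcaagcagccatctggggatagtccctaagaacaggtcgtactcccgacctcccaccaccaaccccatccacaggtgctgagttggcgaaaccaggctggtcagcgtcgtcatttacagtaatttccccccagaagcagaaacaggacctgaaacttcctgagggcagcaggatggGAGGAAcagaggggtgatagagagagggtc
C1qc: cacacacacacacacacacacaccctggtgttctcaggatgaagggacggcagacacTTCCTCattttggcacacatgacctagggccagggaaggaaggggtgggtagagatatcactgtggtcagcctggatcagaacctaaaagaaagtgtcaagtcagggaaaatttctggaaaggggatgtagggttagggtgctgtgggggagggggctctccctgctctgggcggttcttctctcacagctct
The match starts 30 bases upstream in C1qb and 193 bases upstream in C1qc. GAGGAA occurred in 23.3% of 32851 promoter windows of that length, so a match is common. An ETS-IRF composite motif (2.30% of windows) was in neither window, nor were CACGTG (6.02%) and TTCNNNGAA (7.02%). All were searched on both strands, and the composite motif can overlap GAGGAA. Of the 6 complement genes in the table only C1qb, C1qc and Itgam held GAGGAA, Itgam with 2 matches.

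Of the 8 genes tested by genotype, factor B was the one whose difference passed the test between the replicated cell types. C3, Cfp and Itgam also had opposite signs in the 2 cell types, with values that did not pass. Cfb encodes factor B, the protease subunit of the alternative route's convertase, which lies beside the C4 genes. Its probe, shown because the contrast below rests on it alone, covers 357 bases of the minus strand of mm9 at chr17:34993502-34993858 with 60 bases and so crosses an intron.
Cfb: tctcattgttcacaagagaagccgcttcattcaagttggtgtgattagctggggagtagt
Cfb read -0.81, -1.17 and -0.74 in Rheb1-/- and 0.26, 0.03 and -0.42 in wild-type myeloid cells. It read -4.58, -3.81 and -3.87 in Rheb1-/- and -5.28, -5.74 and -4.82 in wild-type progenitors, and was not well above background on wild-type progenitor array 2. The genotypes did not overlap in either cell type, Rheb1-/- being lower in myeloid cells and higher in progenitors.

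In myeloid cells the Cfb log2 difference was -0.86 ± 0.28 (SE, 3 arrays per genotype), 1.82-fold lower, and passed (adjusted p = 0.0385 by limma). This call was lost in 8 of 21 alternatives (range 0.00501 to 0.118): without filter (0.0704), and without wild-type progenitor array 1 (-0.86, 0.0508), wild-type myeloid cell array 1 (-0.71, 0.116) or 2 (-0.83, 0.0965), or Rheb1-/- myeloid cell array 1 (-0.91, 0.0639), 2 (-0.73, 0.118) or 3 (-0.95, 0.0635), the eighth being the fit with replicate number as a block. In progenitors the difference was 1.19 ± 0.28 (SE, 3 arrays per genotype), 2.28-fold higher, and did not pass (adjusted p = 0.129 by limma). It was 1.08 within the slide and 0.29 with normexp correction. The difference between the cell types was itself tested and passed, at -2.05 ± 0.40 (SE; 95% interval -2.94 to -1.17; adjusted p = 0.0158 by limma), and it passed in the 20 alternatives in which Cfb was tested, with values of -2.30 to -0.99. It was not tested where probes had to be well above background on all 12 arrays. It includes the genotype difference in myeloid cells, in which genotype and slide cannot be told apart. In stem cells Cfb read -4.13 in Rheb1-/- and -1.46 in wild type, 6.36-fold lower in Rheb1-/-.

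Cfp encodes properdin, which holds the alternative convertase together. It read 5.76, 5.93 and 5.60 in Rheb1-/- and 6.04, 6.05 and 6.21 in wild-type myeloid cells, without overlap. The difference of -0.34 ± 0.12 (SE, 3 arrays per genotype) did not pass (adjusted p = 0.0544 by limma), and it passed in 7 of 22 alternatives, among them without wild-type progenitor array 1 (-0.34, adjusted p = 0.0495 by limma) or 2 (-0.34, 0.0351) and without Rheb1-/- myeloid cell array 2 (-0.42, 0.0390; range 0.0159 to 0.176). In progenitors Cfp averaged 4.09 ± 0.08 in Rheb1-/- and 3.98 ± 0.20 in wild type (SD, n = 3 each; adjusted p = 0.760 by limma), and the arrays overlapped. Its stem cell levels were 3.47 in Rheb1-/- and 5.98 in wild type, 5.70-fold lower in Rheb1-/-.

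C3 encodes the central component, and its 2 probes did not point the same way in myeloid cells. The brighter probe, printed 10 times on the array, averaged 8.58 ± 0.10 in Rheb1-/- and 8.70 ± 0.06 in wild-type myeloid cells (SD, n = 3 each; log2 difference -0.12, 95% interval -0.52 to 0.29, adjusted p = 0.643 by limma). The other probe read 1.80, 1.65 and 1.78 in Rheb1-/- and 1.40, 1.48 and 1.21 in wild-type myeloid cells, without overlap. Its difference of 0.38 did not pass when every probe was tested (95% interval -0.02 to 0.78, adjusted p = 0.136 by limma). In progenitors the first probe averaged 7.25 ± 0.09 in Rheb1-/- and 6.98 ± 0.45 in wild type (SD, n = 3 each; adjusted p = 0.586 by limma), with overlap. The stem cell arrays read 4.10 in Rheb1-/- and 5.20 in wild type on the first probe and -4.28 and -1.89 on the second.

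Neither receptor chain passed by genotype on its first probe in myeloid cells, and the second probe of Itgam did. Itgb2 encodes CD18, the beta chain shared by CR3 and CR4. It read 5.40, 5.38 and 5.35 in Rheb1-/- and 5.98, 5.76 and 5.90 in wild-type myeloid cells, without overlap. The difference was -0.50 ± 0.18 (SE, 3 arrays per genotype, adjusted p = 0.0579 by limma), and it passed in 7 of 22 alternatives (0.00941 to 0.137 over all), among them without wild-type progenitor array 2 (-0.50, adjusted p = 0.00941 by limma) and in the fit with replicate number as a block (0.0485). In progenitors Itgb2 averaged 2.09 ± 0.20 in Rheb1-/- and 2.15 ± 0.41 in wild type (SD, n = 3 each), a difference of -0.05 that was 0.16 within the slide (adjusted p = 0.950 by limma).

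Itgam encodes CD11b, the alpha chain of CR3. Its first probe averaged 4.50 ± 0.15 in Rheb1-/- and 4.70 ± 0.12 in wild-type myeloid cells (SD, n = 3 each), a difference of -0.20 (adjusted p = 0.574 by limma) with overlapping arrays. Its second probe read 3.98, 3.92 and 4.12 in Rheb1-/- and 4.58, 4.32 and 4.42 in wild type without overlap, and fell by 0.44 when every probe was tested (adjusted p = 0.0415 by limma), so the 2 probes differ in their call. In progenitors the first probe averaged 1.10 ± 0.13 in Rheb1-/- and 0.83 ± 0.64 in wild type (SD, n = 3 each; adjusted p = 0.731 by limma), and its small difference of 0.27 turned to -0.04 without wild-type progenitor array 2.

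C3ar1 encodes the receptor of the C3a fragment and was close to background. Its first probe was well above background on 1 of 3 Rheb1-/- and 3 of 3 wild-type myeloid cell arrays. It read -4.67, -6.13 and -5.15 in Rheb1-/- and -4.16, -4.47 and -4.60 in wild type, without overlap. The difference was -0.91 ± 0.34 (SE, 3 arrays per genotype), and -0.27 with normexp correction. Neither genotype was well above background in progenitors, and the second probe was not on any array, so no fold is given for them. In stem cells the first probe was well above background in wild type alone.

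**Figure D3:**
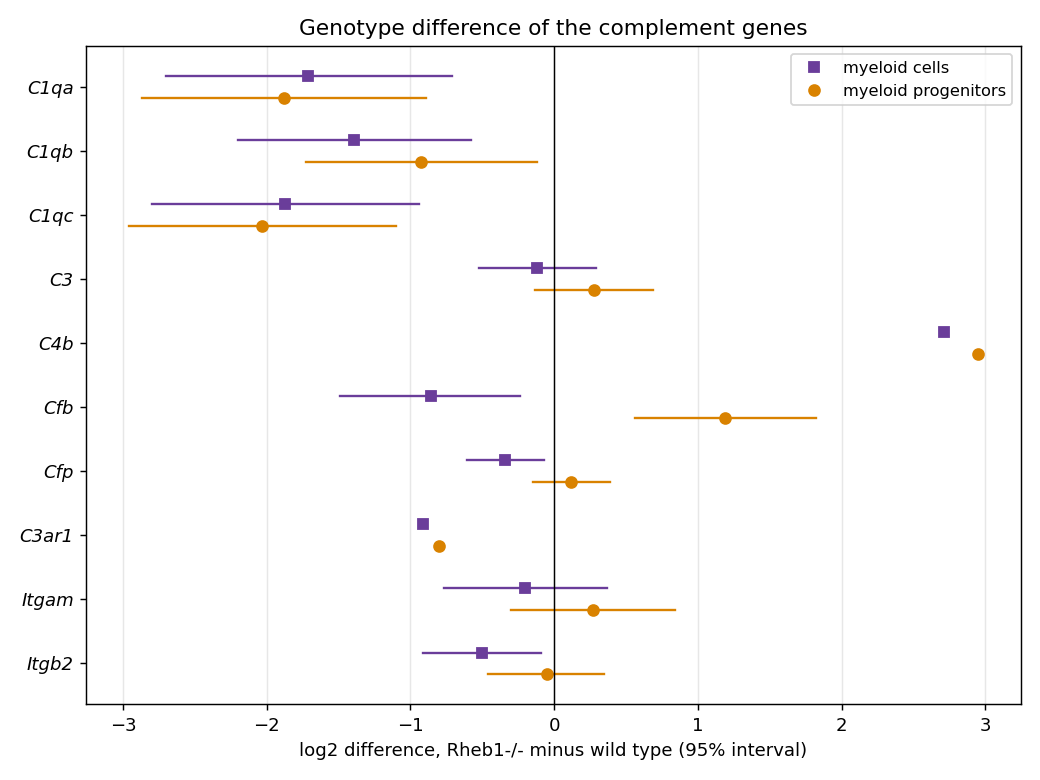
Log2 difference, Rheb1-/- minus wild type, of each complement gene in myeloid cells (purple squares) and progenitors (orange circles), n = 3 arrays per genotype, with 95% intervals except for C4b and C3ar1, which were not tested. C4b lies at 2.71 and 2.95, the C1q chains lie below 0 in both cell types, and Cfb lies at -0.86 in myeloid cells and 1.19 in progenitors. C3ar1 was not well above background on any progenitor array, so its progenitor point is not read as a fold.

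Counted over the 8 genes other than C4b and C3ar1, 4 fell in myeloid cells (C1qa, C1qb, C1qc and Cfb) and 0 rose, where 34.3% of all genes were called, 17.7% lower and 16.5% higher. Their median difference was -0.68, against -0.08 over all genes tested. With C3ar1 counted too, the number called was 3 to 6 when single arrays were left out. C3ar1 passed the filter only through wild-type myeloid cells, so nothing is read from its calls. In progenitors 0 of 8 were called by limma (1 higher and 3 lower at an unadjusted p under 0.05), where 0.0734% of all genes were called, 13 in number, and 2138 of 17720 had an unadjusted p under 0.05. Without Rheb1-/- progenitor array 1 those numbers were 85 of all genes and 1 of the 8, C1qc. The median in progenitors was 0.03 for the complement genes and 0.02 for all genes. For the difference between cell types 1 of 8, Cfb, was called, where 10.9% of all genes were.

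Markers of other cell types also differed by genotype in myeloid cells, where 17.7% of all genes were called lower and 16.5% higher. The neutrophil and stem cell counts below lie near that share of lower genes. Summed erythroid markers were at 98.4 to 431 in Rheb1-/- and 704 to 1130 in wild type, with 6 of 7 lower, and B cell markers at 7.65 to 10.7 in Rheb1-/- and 14.4 to 29.4 in wild type, with 5 of 7 lower. Progenitor markers such as Mpo and Elane were at 1000 to 1390 in Rheb1-/- and 582 to 696 in wild type, with 6 of 8 higher. Neutrophil markers were at 2740 to 3350 in Rheb1-/- and 3450 to 3800 in wild type, with 2 of 10 lower. Megakaryocyte markers were at 9.24 to 11.0 in Rheb1-/- and 15.9 to 19.9 in wild type, with 6 of 8 lower. T and NK cell markers were at 39.4 to 57.2 in Rheb1-/- and 20.2 to 26.7 in wild type, and of the 5 that passed the filter through more than 1 group 3 were lower and 1 was higher. Of the markers that passed it so, 3 of 9 for monocytes, 2 of 6 for dendritic cells, 2 of 6 for stroma and endothelium and 1 of 7 for stem cells were lower and 0 were higher. The part of cell makeup in the complement differences was not tested.

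Between cell types the complement genes tested were higher in myeloid cells than in progenitors, C4b excepted. In wild type no slide held both cell types, so cell type and slide cannot be told apart there. In Rheb1-/- only progenitor array 3 shared a slide with the myeloid cell arrays. In Rheb1-/- 8 of the 9 genes other than C3ar1 rose, where 29.5% of all genes were called higher, and in wild type 8 of 9 rose, again all but C4b, where 38.7% were. The median log2 difference of the 9 was 2.91 in Rheb1-/- and 2.73 in wild type, against -0.10 and 0.04 over all genes. The receptor subunits had large differences. Itgam was 10.5-fold higher in Rheb1-/- (log2 3.40 ± 0.26 SE, 3 arrays per cell type, adjusted p = 1.2e-06 by limma) and 14.6-fold higher in wild type (3.87 ± 0.26, adjusted p = 2.84e-07 by limma). Itgb2 was 9.76-fold higher in Rheb1-/- (3.29 ± 0.18, adjusted p = 1.95e-07 by limma) and 13.3-fold higher in wild type (3.73 ± 0.18, adjusted p = 4.22e-08 by limma). CD11b is often used to isolate myeloid cells, and the sources used here do not say whether it was.

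Among the components, Cfb rose 9.07-fold in Rheb1-/- (log2 3.18 ± 0.28 SE, 3 arrays per cell type, adjusted p = 3.85e-06 by limma) and 37.7-fold in wild type (5.24 ± 0.28, adjusted p = 7.59e-08 by limma). With normexp correction the Cfb log2 differences were 2.06 in Rheb1-/- and 3.05 in wild type. The C1q chains rose by 1.81 to 3.00 on the log2 scale in Rheb1-/- and by 2.28 to 2.84 in wild type. With normexp correction C1qa was at 1.68 in Rheb1-/- and 2.04 in wild type and C1qc at 2.16 in Rheb1-/-, and with slide as a fixed block C1qb was at 2.54 in Rheb1-/-. Cfp rose by 1.67 in Rheb1-/- and 2.12 in wild type, and C3 by 1.33 in Rheb1-/- and 1.73 in wild type on its first probe and by 1.52 and 1.56 on its second. C3ar1 was not well above background on any progenitor array, so its log2 differences are given but not read as folds. With normexp correction the C3ar1 log2 differences were 0.40 in Rheb1-/- and 0.58 in wild type, against 2.28 and 2.38 without it.

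**Figure D4:**
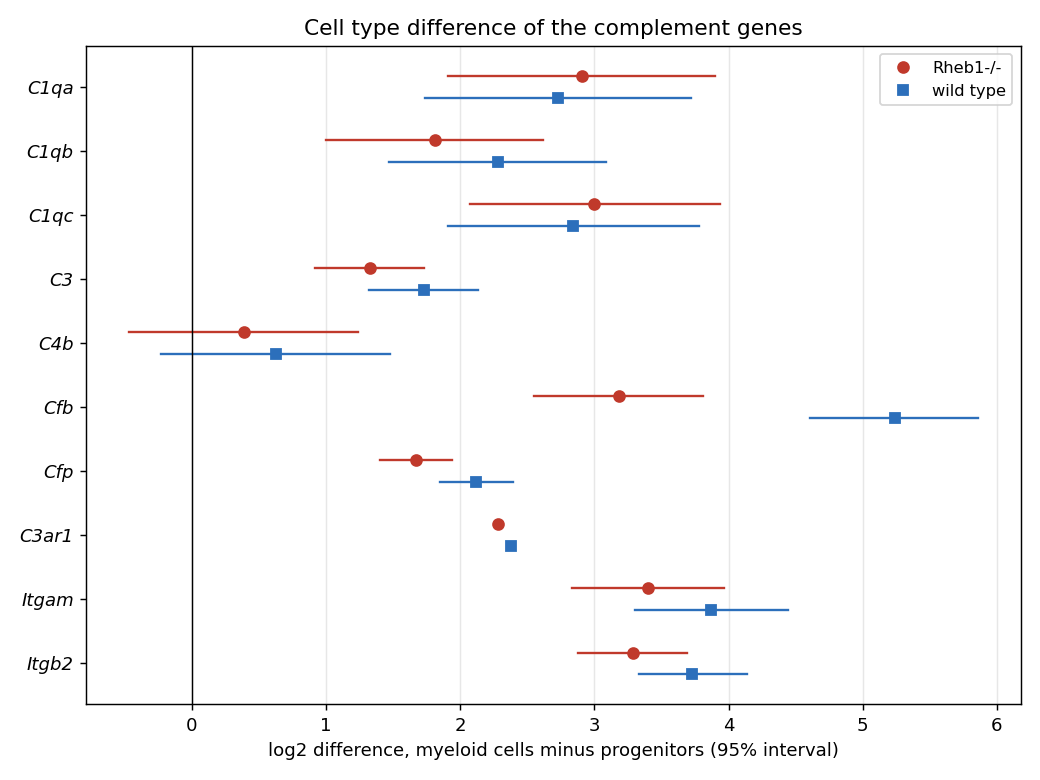
Log2 difference, myeloid cells minus progenitors, of each complement gene in Rheb1-/- (red circles) and wild type (blue squares), n = 3 arrays per cell type, with 95% intervals except for C3ar1, which was not tested. The intervals of C4b include 0, and Cfb lies at 3.18 in Rheb1-/- and 5.24 in wild type. C3ar1 was not well above background on any progenitor array, so its points are not read as folds.

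In the single pair of stem cell arrays all 13 probes were lower in Rheb1-/-. Of the 9 genes well above background on both arrays, 8 were over 2-fold lower, all but C4b, where 6.35% of 16735 genes were over 2-fold lower. Beside the C1q chains, Cfb and Cfp described above, Itgb2 was 2.63-fold, Itgam 2.22-fold and C3 2.16-fold lower on their first probes. Neutrophil markers (6 of 10) and B cell markers (6 of 7) were also over 2-fold lower in the Rheb1-/- array. So were dendritic cell (5 of 7), erythroid (4 of 6), stroma and endothelium (3 of 6) and monocyte markers (3 of 9). T and NK cell (2 of 8) and megakaryocyte markers (2 of 8, with 1 over 2-fold higher) followed. Of progenitor markers 0 of 8 were, and of stem cell markers 0 of 8. The part of other cells' RNA in the wild-type array was not tested. Its slide, which also held wild-type progenitor array 1, was scanned at another time than the rest.

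The other genes of the classical and lectin routes were mostly dim. Of 15 on the array 7 were tested, of which 2 fell in Rheb1-/- myeloid cells and 0 rose, where 17.7% of all genes were lower and 16.5% higher. Fcna encodes ficolin A, a lectin made by macrophages. It averaged -2.98 ± 1.08 in Rheb1-/- and -0.18 ± 0.14 in wild type (SD, n = 3 each), 6.99-fold lower (adjusted p = 0.00415 by limma), at a log2 difference of -2.81 that was -2.05 with normexp correction and -3.40 without Rheb1-/- myeloid cell array 1. C2, the serine protease that docks on C4b protein, averaged -4.44 ± 0.37 in Rheb1-/- and -2.90 ± 0.17 in wild type (SD, n = 3 each), 2.91-fold lower (adjusted p = 0.00241 by limma), at a log2 difference of -1.54 that was -0.67 with normexp correction. Both genes were also lower in the Rheb1-/- stem cell array, Fcna at -1.21 against 4.60 and C2 at -3.44 against 1.01 in wild type. In progenitors neither passed. The log2 difference there was -2.57 ± 0.55 for Fcna (SE, adjusted p = 0.103 by limma), and -2.49 within the slide. For C2 it was -0.34 (adjusted p = 0.666 by limma), and -0.53 within the slide. Between cell types Masp2, a protease of the lectin route, fell by 2.19 on the log2 scale in Rheb1-/- and 2.09 in wild type, myeloid cells minus progenitors (-1.53 and -1.43 with normexp correction).

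Of 8 alternative and terminal route genes on the array 4 were tested, and 2 rose and 2 fell in Rheb1-/- myeloid cells, beside shares of 16.5% and 17.7% over all genes. Hc encodes complement C5. It read -2.71 to -1.80 in Rheb1-/- and -0.46 to 0.07 in wild-type myeloid cells, without overlap, and fell 3.77-fold (log2 -1.91 ± 0.25 SE, 3 arrays per genotype, adjusted p = 0.000647 by limma). In progenitors Hc averaged -4.97 in Rheb1-/- and -4.99 in wild type. Cfd, the factor D protease that cuts factor B, rose by 0.84 in myeloid cells (adjusted p = 0.00788 by limma), and C8g, a chain of C8, rose by 0.58 (adjusted p = 0.0106 by limma). With normexp correction the Cfd value was 0.41 and the C8g value 0.17, and neither passed (adjusted p = 0.0699 and 0.331 by limma; ranges 0.00169 to 0.0699 and 0.00263 to 0.331). The C8g call was also lost in a fit of the myeloid cell arrays alone (0.58, adjusted p = 0.0539 by limma). C6, of the membrane attack complex, fell by 0.55 (adjusted p = 0.0204 by limma). It was dim, at -5.56 in Rheb1-/- and -5.00 in wild-type myeloid cells. On 2 of 3 Rheb1-/- and 3 of 3 wild-type myeloid cell arrays it was well above background. Its difference was not run through the alternatives.

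Of 15 regulators 9 were tested. Of the 6 that passed the filter through more than 1 group, 1 rose and 2 fell in Rheb1-/- myeloid cells, beside 34.3% of all genes called in either direction. Clu encodes clusterin, which binds the terminal complex. It read -0.92, 0.92 and 1.40 from lowest to highest in Rheb1-/- myeloid cells and -2.95, -2.62 and -2.27 in wild-type ones, 8.45-fold higher (log2 3.08 ± 0.48 SE, 3 arrays per genotype, adjusted p = 0.00146 by limma). The Clu log2 difference was 2.45 with normexp correction and 3.77 without Rheb1-/- myeloid cell array 1. Cr1l, the membrane regulator Crry of mice, fell by 0.42 (adjusted p = 0.0166 by limma), a call lost without wild-type myeloid cell array 1 (-0.34, adjusted p = 0.0519 by limma) or Rheb1-/- myeloid cell array 1 (-0.37, 0.0512; range 0.00459 to 0.0519). The other was Cd59b, not well above background on any Rheb1-/- myeloid cell array, whose call was lost in 13 of 21 alternatives.

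All 9 other receptors and integrin partners on the array were tested. Of the 8 that passed the filter through more than 1 group, 2 rose and 3 fell in Rheb1-/- myeloid cells, where 16.5% of all genes were higher and 17.7% lower. Itgax encodes CD11c, the alpha chain of CR4. It averaged -0.77 ± 0.72 in Rheb1-/- and 1.22 ± 0.08 in wild type (SD, n = 3 each), 3.98-fold lower (adjusted p = 0.00501 by limma). Cd93, once held to be a C1q receptor, rose 1.75-fold (log2 0.80 ± 0.09 SE, 3 arrays per genotype, adjusted p = 0.000357 by limma), and C1qbp, a mitochondrial protein that also binds C1q heads, rose 2.10-fold (1.07 ± 0.18, adjusted p = 0.00214 by limma). Itgal, the CD11a chain, and Lrp1, a scavenger receptor, fell by 0.43 and 0.35 (adjusted p = 0.00913 and 0.0263 by limma). C5ar1, the C5a receptor, read between -0.15 and 0.25 in Rheb1-/- and between -0.27 and 0.13 in wild-type myeloid cells and was 41.2-fold higher there than in progenitors in Rheb1-/- (adjusted p = 8.27e-07 by limma), a log2 difference of 5.36 that was 3.43 with normexp correction. In progenitors limma called by genotype 0 of the 25 genes of these 4 lists that passed the filter through more than 1 group. At an unadjusted p under 0.05 by limma 2 were higher and 2 lower, beside 2138 of all 17720 genes in either direction. Nothing is read from that count.

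**Figure D5:**
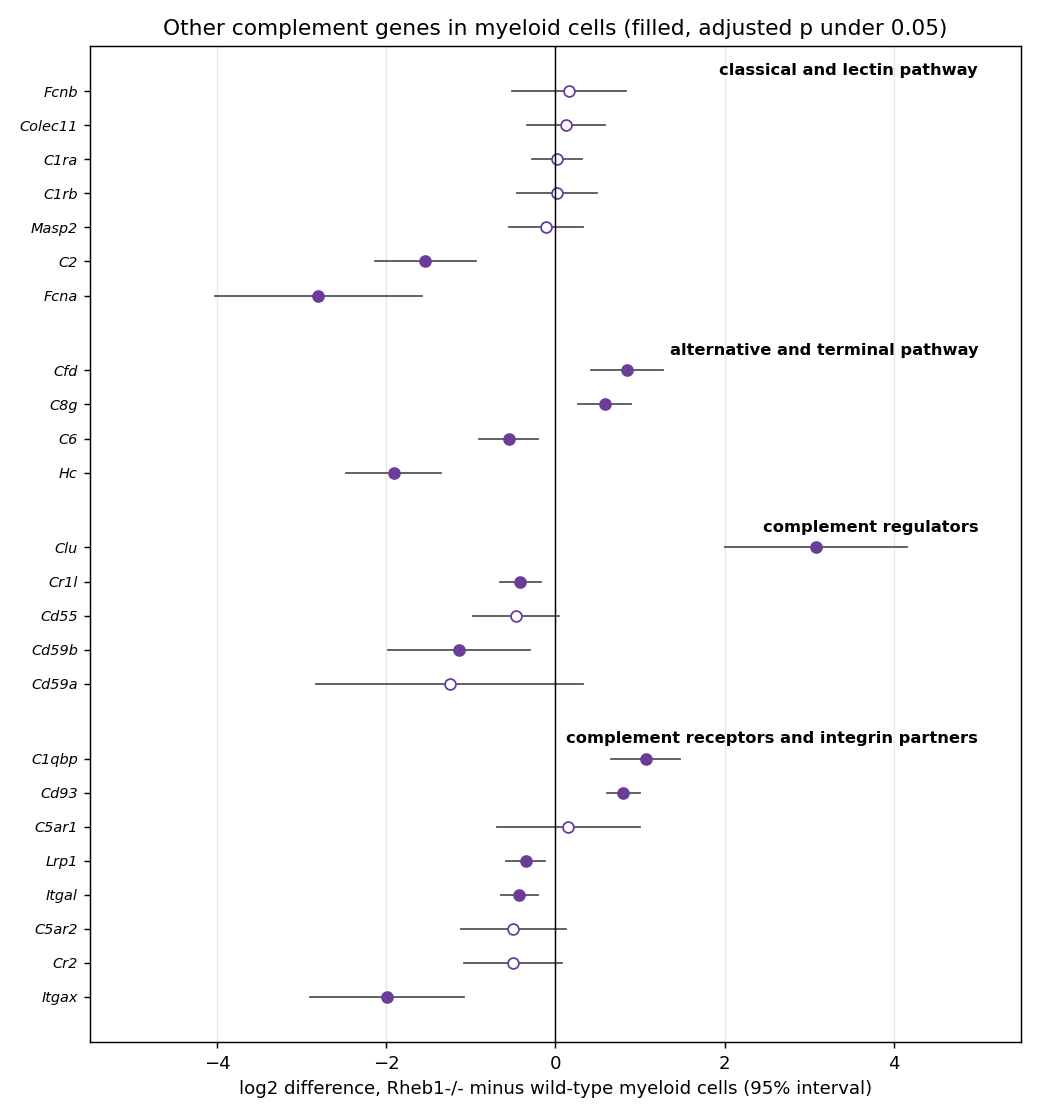
Log2 difference, Rheb1-/- minus wild-type myeloid cells, of other complement genes that passed the filter through more than 1 group, by role, with 95% intervals, n = 3 arrays per genotype. Filled circles passed at an adjusted p under 0.05. Clu lies at 3.08, and Fcna, Itgax, Hc and C2 lie at -2.81 to -1.54.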

How the data were processed

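Total RNA of 14 mouse samples was Cy3-labelled, per the labels' protocols, and each was read on 1 Agilent array. Values used were the processed intensity, which Feature Extraction had background-subtracted, per the file headers, with the mean and local background intensities for the normexp alternative. The headers name version 10.7.3.1 and the submitters' processing notes 9.1. The deposited value table holds log2 values, which appear quantile normalized, and was an alternative. Of 45018 spots, 1639 controls and 79 to 195 outliers an array were dropped. Names came from a RefSeq table for GRCm38.p6 by accession (27668 probes), symbol (5589) or older symbol (471), otherwise from the file (7446). Promoter sequences are RefSeq's for GRCm38.p6, which held 6 of the 10 genes, and probe positions are the files', in mm9.

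Log2 spots of a probe were averaged after subtracting the array's 75th percentile. Each gene took its brightest probe over the 12 replicated arrays. A gene was tested if that probe was well above background throughout at least 1 replicated group and measured on 2 or more arrays of each, which held for 17720 of 27343. A model with one mean for each labelled group was fitted in limma 3.58.1 (under R 4.3.3 with statmod 1.5.0 and version 1.17.8 of data.table), with 8 residual degrees of freedom, 1.95 prior ones and a median residual SD of 0.182. The 5 contrasts were tested, two-sided, with Benjamini-Hochberg adjustment over all genes at 0.05: genotype within each replicated cell type, the difference between these, and cell type within each genotype. Animals are not named in the labels, and a p-value therefore reflects only how far these samples differ, which may be technical. A gene that passed that filter through 1 group alone was left out of the counts of called complement and marker genes, except where C3ar1 is said to be counted. The sums, the medians over all 13 resident macrophage markers and their count below 0 include Timd4. The shares over all genes do include such genes. Over the 16514 genes that passed through more than 1 group, 17.3% were lower and 17.6% higher by genotype in myeloid cells. For the difference between cell types 11% of them were called. Higher in myeloid cells than in progenitors were 30.1% in Rheb1-/- and 37.9% in wild type. Second probes took p-values from a fit of every probe. Stem cells, with 1 array a genotype, were described over the 16735 genes well above background on both.

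The 10 genes, the lists and the alternatives were chosen with earlier results of these data known. All 10 are named with every probe, and each other list gives up to 3 passing genes of smallest p per contrast, of which 1 regulator is not reported here. Named after their values were seen were C4a, the marker genes, and C6, Itgal, Lrp1 and C5ar1 by genotype in myeloid cells. The fit was tested on simulated data.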

Additional observations from a re-analysis of the deposited data

Results flagged for a closer look

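For 5 of 33 complement genes (15.2%) the genotype difference in myeloid cells was itself tested against that in progenitors and differed, where 10.9% of all genes were called. The difference of the 2 differences, myeloid cells minus progenitors, was -2.05 for Cfb (limma adjusted p = 0.0158), -1.93 for Hc (0.0136), -0.91 for Lrp1 (0.0101), 0.89 for Cd93 (0.00918) and 0.97 for C1qbp (0.0414). The Cfb genotype difference was -0.86 in myeloid cells and 1.19 in progenitors, that of Hc -1.91 and 0.02, that of Lrp1 -0.35 and 0.56, that of Cd93 0.80 and -0.08, and that of C1qbp 1.07 and 0.10. The C1qbp call was lost in 11 of 21 alternatives (adjusted p 0.0234 to 0.0886), with single arrays left out in all but 2 of them. Each of the 5 differences includes the myeloid cell contrast, in which genotype and slide cannot be told apart.

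In stem cells, with 1 array a genotype, the C4b difference of -0.58 was opposite in direction to those in progenitors (2.95) and in myeloid cells (2.71). The Cfb stem cell difference of -2.67 was opposite to that in progenitors (1.19). These differences between cell types were not tested.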

How the results depend on the processing

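Cfb's difference between the cell types, the falls of C1qa and C1qc in myeloid cells and the higher levels of 8 complement genes in myeloid cells than in progenitors in both genotypes kept their direction and call in every alternative that tested them. Changes of call in Rheb, C1qb, C1qc, C4b, Cfb, Cfp, Itgb2, Cfd, C8g, Cr1l and Cd59b stand beside their values above. Between cell types in Rheb1-/-, Colec11 lost its call with normexp (adjusted p = 0.147) and with slide as a fixed block (0.0643). The pathway genes went through the alternatives after their values were seen. The 13 genes called in progenitors became 27 with normexp (7 higher, 20 lower, so that the higher share went from 69.2% to 25.9%), 26 with every probe tested, 7 without filter, 4 with slide as a fixed block, 1 on the shared slide alone and 0 with the progenitor arrays alone by limma (2137 at an unadjusted p under 0.05). Counts of complement genes here include C3ar1, which passed the filter only through wild-type myeloid cells, so nothing is read from its part in them. The 4 called in myeloid cells became 7 with slide as a random block. For the difference between cell types, 1927 genes became 786 without filter, and 1 complement gene became 2 with quantile normalization and 0 of 7 with the filter on all 12 arrays, which left Cfb out. Quantile normalization moved the higher share from 48.2% to 56.6% in myeloid cells and from 51.1% to 63.5% for the difference. Testing every probe gave 18476 and 20844 calls between cell types in Rheb1-/- and wild type, against 12139 and 13765 genes. Leaving out single arrays gave 6 to 85 genes and 0 to 1 complement genes in progenitors, 4500 to 6032 and 3 to 6 in myeloid cells, 906 to 2184 and 1 to 2 for the difference, 11205 to 12250 and 9 to 10 between cell types in Rheb1-/-, and 13141 to 13761 and 9 to 9 in wild type. The 85 genes came without Rheb1-/- progenitor array 1, and 2 complement genes without wild-type progenitor array 3. Signs turned only among values that did not pass: Itgam in progenitors (-0.04 without wild-type array 2, to 0.60 with single arrays left out), Itgb2 in progenitors (0.16 with slide as a block or on the shared slide, and 0.07, 0.06 and 0.04 without wild-type array 1, wild-type array 3 and Rheb1-/- array 3, from -0.29 with single arrays left out), C3 in myeloid cells (0.13 as the mean of its probes), and the difference between cell types of C1qa (-0.36 with normexp, and -0.08, -0.13 and -0.25 without wild-type progenitor array 2, Rheb1-/- progenitor array 2 and Rheb1-/- myeloid cell array 1, up to 0.62) and of C1qc (-0.34, -0.01, -0.10 and -0.27 in the same order, up to 0.55). The cause was not tested.

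Same-numbered arrays did not deviate together (correlations -0.01, 0.11 and 0.03 in progenitors and -0.10, -0.06 and -0.15 in myeloid cells). The labels do not say whether such samples were paired, and these correlations cannot decide it. With replicate number as a block the calls were 14 and 5699 genes by genotype in progenitors and myeloid cells, 1339 for the difference and 12021 and 13630 between cell types, Cfb in myeloid cells was lost (adjusted p = 0.0619) and Itgb2 gained (0.0485). Slide as a fixed block could not be fitted for the myeloid genotype contrast, the difference or the wild-type cell types. Signal near background limits C3ar1, C4a and Cfb in progenitors, and C6 in myeloid cells.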
